A study of Mus musculus with 8 samples.

Results

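Polycomb group transcripts were followed in the cerebellum of old and young mice through 9 genes, Cbx2, Cbx6, Cbx7, Cbx8, Bmi1, Ezh1, Ezh2, Eed and Suz12, out of 17700 genes listed. They were picked by gene symbol, with their old and young levels already known, so differences between the ages are given for them as a description, and no support is drawn from test calls on them. All 9 passed the filter on low counts, as did 14191 genes in all. RNA of frozen cerebellum was sequenced from 8 C57BL/6JN mice, each library from a separate animal as far as the labels tell. The old group held males of 93 weeks (old 1) and 83 weeks (old 3) and females of 83 weeks (old 2) and 102 weeks (old 4). The young group held 2 males of 19 weeks (young 1 and young 2) and females of 19 weeks (young 3) and 22 weeks (young 4). No treatment or engineered allele is named for either age.

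Polycomb proteins keep genes silent through a pair of complexes that modify histones. Polycomb repressive complex 2 (PRC2) methylates histone H3 through a catalytic subunit, EZH1 or EZH2, which works only together with EED and SUZ12. Polycomb repressive complex 1 (PRC1) ubiquitinates histone H2A. Its canonical form holds a Polycomb ring finger protein such as BMI1 and a chromodomain protein of the CBX family, such as CBX2, CBX6, CBX7 or CBX8, which reads the PRC2 mark. EZH2 is best known from dividing progenitors and EZH1 from cells that have left the cell cycle, as cerebellar neurons have.

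Total counts were 6079485 to 7236720 per library, and 3 counts of a gene were worth 0.421 to 0.511 CPM, the unit used below, in which counts are scaled to the library total after adjustment by the TMM method. This floor covers counting error only. The 14 granule neuron markers summed to 5063 to 7019 CPM in old and 5521 to 8521 CPM in young libraries, and the 13 Purkinje cell markers to 5819 to 7913 CPM in old and 6681 to 8467 CPM in young libraries, so defining cerebellar markers were present in each. Liver genes, listed because the series text names liver, summed to 2.84 to 84.2 CPM in old and 0.682 to 21.2 CPM in young libraries. Old 2, old 3 and young 4 were the libraries with the highest sums. Choroid plexus genes also varied widely, from 49.4 to 918 CPM in old and 37.5 to 443 CPM in young libraries. Microglia markers were higher in each old library (237 to 471 CPM, 12 of 12 markers listed) than in any young library (148 to 190 CPM). The part of microglia in the Polycomb values below was not tested. In RNA of bulk tissue, fewer cells of a type and less RNA per cell cannot be told apart.

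The 300 bases around the start of a gene, 250 before and 50 after it, were available from RefSeq for 8 of the 9 genes (GRCm38.p6). The windows of 3 chromodomain genes are shown because the first 2 had old and young values that did not overlap, while Cbx7, which neighbours Cbx6, had values that did. Capitals mark CpG dinucleotides, the sites of DNA methylation and hydroxymethylation, which the study's title concerns and which were not measured in these libraries. The windows lie at chr11:119040864-119041163 for Cbx8, chr15:79834284-79834583 for Cbx6 and chr15:79932597-79932896 for Cbx7, all on the minus strand.
Cbx8: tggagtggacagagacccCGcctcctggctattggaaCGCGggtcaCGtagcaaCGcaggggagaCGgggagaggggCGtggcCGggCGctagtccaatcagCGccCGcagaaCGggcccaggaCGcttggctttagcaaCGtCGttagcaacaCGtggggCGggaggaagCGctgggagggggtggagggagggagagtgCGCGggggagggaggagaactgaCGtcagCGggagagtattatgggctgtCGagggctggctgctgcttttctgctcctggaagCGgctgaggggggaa
Cbx6: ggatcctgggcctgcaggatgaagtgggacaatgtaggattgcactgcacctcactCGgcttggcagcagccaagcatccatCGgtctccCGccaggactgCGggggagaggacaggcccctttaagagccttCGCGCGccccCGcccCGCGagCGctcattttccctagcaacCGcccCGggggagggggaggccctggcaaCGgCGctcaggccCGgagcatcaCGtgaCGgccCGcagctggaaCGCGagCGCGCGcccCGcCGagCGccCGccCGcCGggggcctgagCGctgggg
Cbx7: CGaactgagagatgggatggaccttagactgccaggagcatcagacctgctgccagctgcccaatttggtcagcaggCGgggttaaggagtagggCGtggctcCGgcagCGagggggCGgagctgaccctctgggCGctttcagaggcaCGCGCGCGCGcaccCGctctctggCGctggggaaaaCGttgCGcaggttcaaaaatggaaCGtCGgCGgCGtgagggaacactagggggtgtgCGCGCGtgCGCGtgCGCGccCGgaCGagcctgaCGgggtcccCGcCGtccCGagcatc
The windows held 24 CpG in Cbx8, 31 in Cbx6 and 33 in Cbx7, and the other 5 genes had 17 (Eed) to 41 (Suz12). Over 32841 promoters of the same length the median was 7, with quartiles of 3 and 20. The E2F letters TTTGGCGC or TTTCCCGC, searched on both strands, stood in the windows of Ezh2 and Suz12 and in 1.57% of all promoters. The cAMP response element letters TGACGTCA, which read the same on both strands, stood in Cbx8 alone among the 8 windows and in 1.79% of all promoters.

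Of the chromodomain genes, Cbx8, Cbx2 and Cbx6 had lower mean levels in old than in young cerebellum, while Cbx7, Bmi1 and the PRC2 core genes had log2 fold changes between -0.07 and 0.10. Cbx8, which encodes a PRC1 chromodomain protein, had 11.1, 8.78, 16.4 and 11.4 CPM in old 1 to old 4, against 25.6, 21.5, 17.2 and 18.9 CPM in young 1 to young 4. Each old library was below each young library, though old 3 lay close to young 3. The log2 fold change, old minus young, was -0.81 ± 0.15 (SE), a ratio of 0.570. Without old 2, old 3 and young 4, the libraries with the most liver transcripts, it was -0.88 ± 0.20 (SE). That fit kept old 1 and old 4 against young 1, young 2 and young 3. It also dropped old 3, the highest old value of Cbx8, and leaving out old 3 alone gave -0.95 ± 0.16 (SE). In counts the old libraries held 61 to 104 reads of Cbx8 and the young libraries 101 to 165.

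Cbx2, the chromodomain gene known in mammals for its role in body patterning and sex development, was the lowest of the 9 genes. It had 7.22, 4.89, 6.13 and 3.63 CPM in old 1 to old 4, and 9.46, 6.43, 6.31 and 8.42 CPM in young 1 to young 4. Old 1 lay within the young range and the other 3 old libraries lay below it. The log2 fold change was -0.50 ± 0.22 (SE) from 23 to 61 reads per library, and -0.32 once the granule neuron score was added to the model.

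Cbx6, another PRC1 chromodomain gene, was the highest of the 9 genes. It had 320, 334, 372 and 328 CPM in old 1 to old 4, against 451, 374, 402 and 415 CPM in young 1 to young 4. The highest old library, old 3, was just below the lowest young library, young 2. Cbx6 averaged 339 ± 22.8 CPM in old and 411 ± 32.2 CPM in young mice (SD, n = 4 each), a log2 fold change of -0.28 ± 0.08 (SE). It was -0.34 ± 0.12 (SE) without old 2, old 3 and young 4, and -0.33 ± 0.09 (SE) without old 3 alone. It was smaller in size, -0.22 ± 0.07 (SE), with the granule neuron score in the model, and -0.22 ± 0.08 (SE) without young 1, the highest young library.

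Cbx7, the chromodomain gene best known for repressing the Cdkn2a locus and delaying senescence in cultured cells, had 96.9, 94.1, 108 and 98.9 CPM in old 1 to old 4, and 95.1, 91.6, 87.8 and 102 CPM in young 1 to young 4. The groups overlapped, with old 3 highest and young 3 lowest. The log2 fold change was 0.08 ± 0.08 (SE). Bmi1, the ring finger partner that stimulates ubiquitination by PRC1, had 69.1, 86.4, 78.3 and 72.6 CPM in old 1 to old 4, and 64.4, 70.2, 75.5 and 91.6 CPM in young 1 to young 4. The young libraries spanned the whole old range, and the log2 fold change was 0.03 ± 0.10 (SE).

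**Figure D1:**
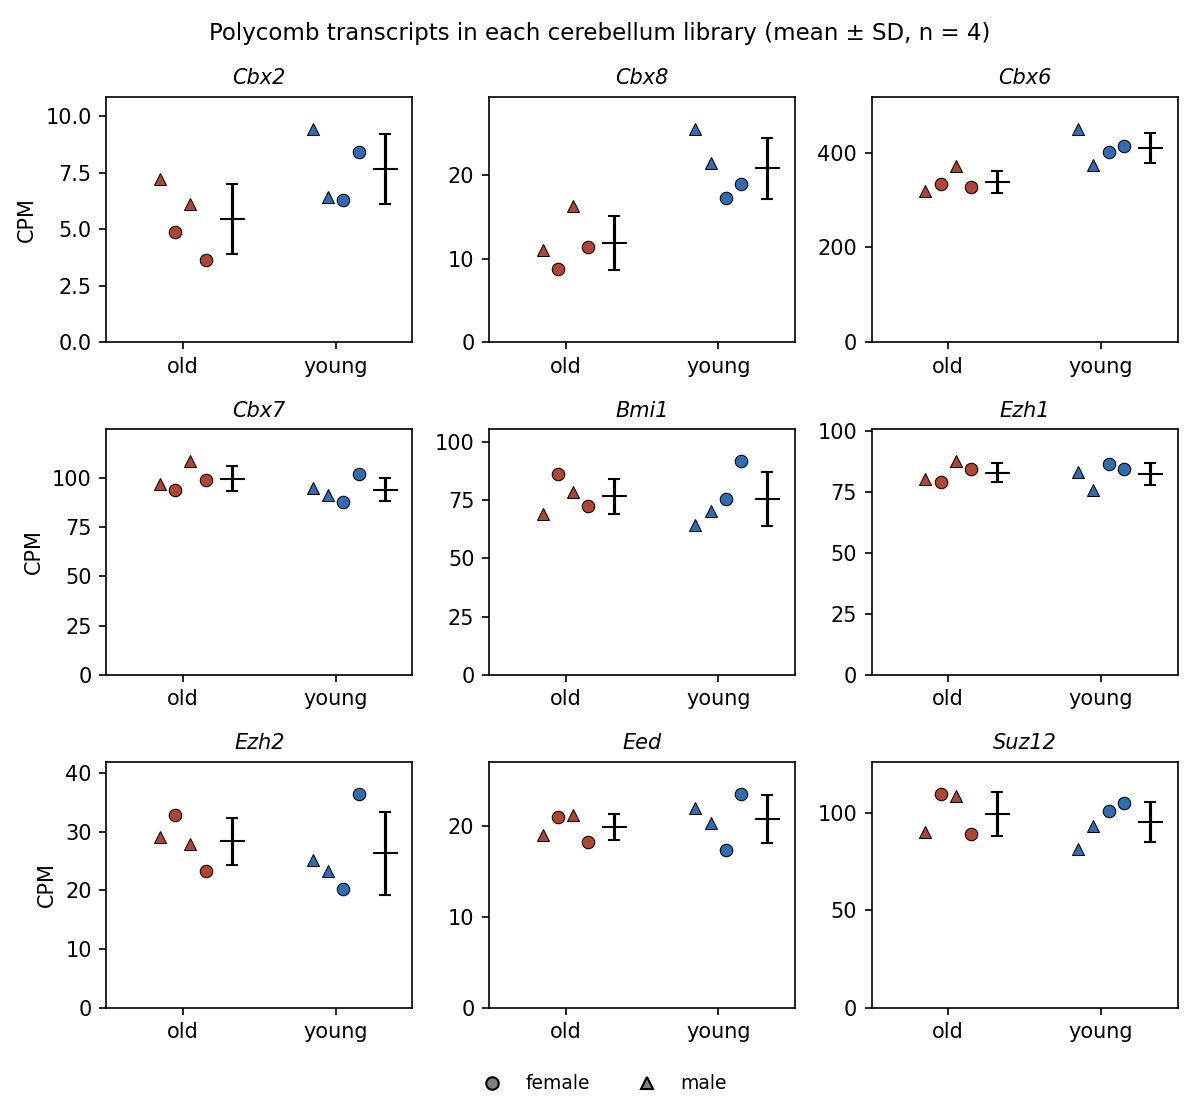
Levels in CPM (vertical axes, from 0) of the 9 Polycomb genes in each library, old at the left and young at the right of each panel, with circles for females and triangles for males. Black bars give the mean ± SD of 4 libraries. The Cbx8 and Cbx6 values of old and young mice do not overlap, and those of the other 7 genes do.

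For each PRC2 core gene the old and young values overlapped. Ezh1, one of the alternative methyltransferases, had 80.5, 79.2, 87.7 and 84.7 CPM in old 1 to old 4, and 83.1, 75.7, 86.4 and 84.6 CPM in young 1 to young 4. It was the steadiest gene of the set, with a coefficient of variation of 4.85% over the 8 libraries against 35.0% for Cbx8, and its log2 fold change was 0.01 ± 0.08 (SE). The coefficient of Cbx8 also holds the difference between the ages and the counting noise of fewer reads. Within ages, the SD of log2 CPM was 0.0761 for Ezh1, 0.308 for Cbx8 and 0.348 for Cbx2. Ezh2, the other methyltransferase, had 29.2, 33.0, 28.0 and 23.4 CPM in old 1 to old 4, and 25.3, 23.4, 20.3 and 36.5 CPM in young 1 to young 4. Its young libraries held both its lowest and its highest value, and the log2 fold change of 0.10 ± 0.18 (SE) left room for a difference in either direction. The value depended on the fit. It was 0.29 ± 0.14 (SE) with the granule neuron score in the model and 0.32 ± 0.14 (SE) without young 4, the highest library. Without young 3, the lowest library, it was -0.03 ± 0.16 (SE). Proliferating cell markers, which EZH2 often accompanies, summed to 65.5 to 75.9 CPM in old and 61.5 to 73.1 CPM in young libraries. All 11 of 11 markers were listed, but only 6 passed the filter on low counts.

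Eed, which encodes the PRC2 subunit that binds the methylated histone and stimulates the enzyme, averaged 19.9 ± 1.44 CPM in old and 20.8 ± 2.65 CPM in young mice (SD, n = 4 each). Its log2 fold change was -0.07 ± 0.13 (SE). Suz12, the scaffold subunit, averaged 99.6 ± 11.3 CPM in old and 95.4 ± 10.4 CPM in young mice (SD, n = 4 each), a log2 fold change of 0.07 ± 0.10 (SE). Both genes overlapped between the ages, with ranges of 18.3 to 21.2 CPM in old and 17.4 to 23.6 CPM in young libraries for Eed, and 89.3 to 110 CPM in old and 81.6 to 105 CPM in young libraries for Suz12.

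In all, 2 of 9 genes had old values entirely below the young ones and 0 entirely above, where 3.42% of all tested genes had lower and 3.15% higher values without overlap, 6.57% in all. For age, 0.120% of all tested genes (0.0211% in the lower direction) passed the threshold of 0.05 on edgeR adjusted p-values, and 0 of the 9 did so. DESeq2 called 0.881% of all tested genes and 1 of the 9, Cbx8, and limma-voom called 0.00705% and 0 of the 9. Nothing is read from these counts, since the genes were picked with these values known. Signs were split, with 4 negative and 5 positive log2 fold changes and a median of 0.01, beside a median of -0.01 over all tested genes.

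Levels can be set against each other per length of exon. Per kilobase, over 8 libraries, Cbx6 had 64.5 ± 7.98 CPM (SD), Cbx7 28.4 ± 1.88, Suz12 22.3 ± 2.35, Bmi1 20.6 ± 2.47 and Ezh1 13.6 ± 0.660 CPM per kilobase. Eed had 9.86 ± 0.984, Ezh2 9.77 ± 1.93, Cbx8 4.57 ± 1.60 and Cbx2 1.72 ± 0.486 CPM per kilobase. Ranges over libraries were separate between Cbx6 and Cbx7, Cbx7 and Suz12, Bmi1 and Ezh1, Ezh1 and Eed, and Ezh2 and Cbx8. They overlapped between Suz12 and Bmi1, Eed and Ezh2, and Cbx8 and Cbx2. The lowest Cbx7 level was 25.8 and the highest Suz12 level 25.1 CPM per kilobase. Lengths were those of all annotated exons of a gene joined, not of the transcripts expressed. Separate ranges thus cover the spread between libraries only, and the order and the shares rest on these lengths. Ezh1 made up 52.5% to 62.6% of the summed Ezh1 and Ezh2 level per kilobase in old and 51.7% to 66.3% in young libraries, so the enzymes' makeup overlapped between the ages.

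Among the 4 Cbx genes of the set, each can be given as a share of their summed level per kilobase. That sum was 92.4 ± 6.50 CPM per kilobase in old and 106 ± 7.42 CPM per kilobase in young mice (SD, n = 4 each), with overlapping groups, and the CPM of Cbx7 itself also overlapped, so a share shows unequal differences among the 4 genes. Cbx7 made up 31.7% ± 0.655 in old and 26.1% ± 1.53 in young mice (SD, n = 4 each). Its share was higher in each old library, 31.1% to 32.4%, than in any young library, 24.2% to 27.5%. Cbx8 made up 3.56% ± 0.705 in old and 5.46% ± 0.771 in young mice (SD, n = 4 each), again without overlap. Cbx6 was the largest share at 63.2% ± 1.08 in old and 66.6% ± 1.47 in young mice (SD, n = 4 each), with the old libraries, 62.2% to 64.7%, just below the young ones, 65.1% to 68.2%. Cbx2 was the smallest at 1.56% ± 0.446 in old and 1.88% ± 0.251 in young mice, with overlapping groups. The ratio of Cbx7 to Cbx8 per kilobase was 9.15 ± 1.76 in old and 4.85 ± 0.803 in young mice, from 6.98 to 11.3 in old and 3.91 to 5.66 in young libraries. These shares rest on the same old and young values that picked the genes, so they are given without a test.

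**Figure D2:**
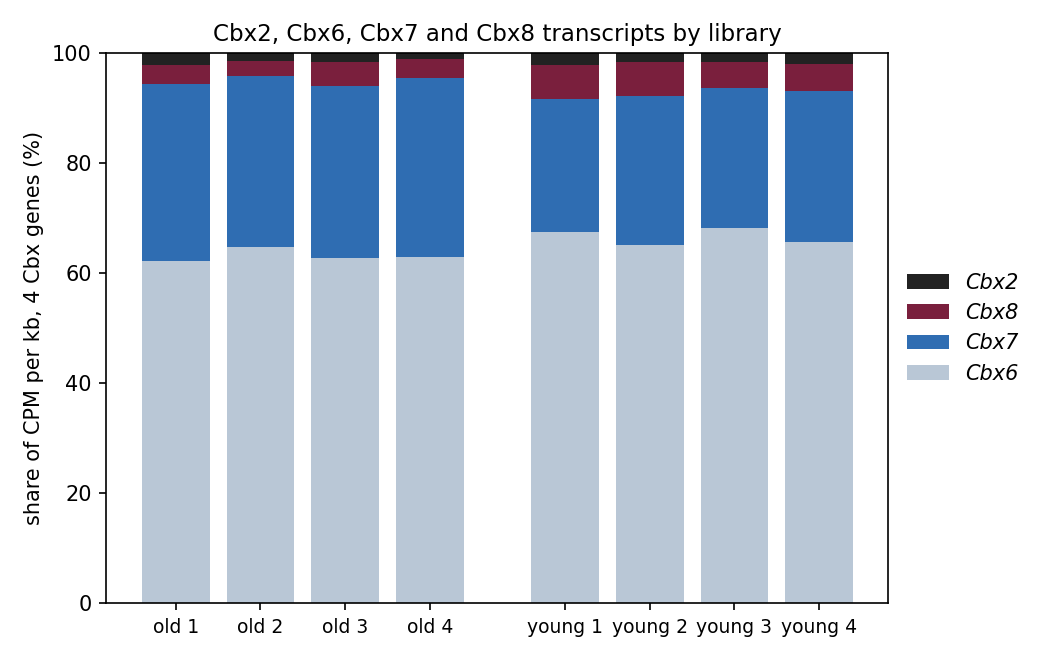
Share (vertical axis, percent of summed CPM per kilobase) of Cbx2, Cbx6, Cbx7 and Cbx8 in each library, old at the left and young at the right. The band of Cbx7 is wider in each old library (31.1% to 32.4%) than in each young library (24.2% to 27.5%), and the band of Cbx8 is narrower.

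The Cbx genes lie in pairs. Cbx2 lies on chromosome 11 at 119022962 to 119031270 (GRCm38, plus strand), and Cbx8 at 119036305 to 119040969 on the minus strand, with a gap of 5.04 kb between them. Cbx6 (79823896 to 79834688) and Cbx7 (79915807 to 79971119) share chromosome 15, both on the minus strand and 81.1 kb apart. The pair on chromosome 15 had log2 fold changes of opposite sign, -0.28 for Cbx6 and 0.08 for Cbx7, and Cbx2 and Cbx8 had the same sign. The RefSeq start of Cbx7 used for its promoter lies inside its span, which covers all its annotated transcripts. The other genes lie on chromosome 2 (Bmi1, 18677018 to 18686629), chromosome 6 (Ezh2, 47530139 to 47595341), chromosome 7 (Eed, 89954654 to 89980983) and chromosome 11 (Suz12, 79993106 to 80034123, and Ezh1, 101191115 to 101226463). These are whole gene spans, and counts cover each gene as a unit. Exons of Cbx6 share 563 bases with Npcd on the same strand, and those of Cbx7 share 100 bases with Apobec3 on the opposite strand, whose counts over the 8 libraries came to 190. Exons of Ezh2, Eed and Suz12 share 174, 261 and 178 bases with gene models on the opposite strand.

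The 5 tested genes on either side of Cbx6 and Cbx7 were looked at after the Cbx values were seen. Of these neighbours 8 of 10 were lower in old mice by the sign of their log2 fold change, with a median of -0.11 and a range of -0.25 to 0.18, beside 51.4% of all tested genes with a negative value, and 0 of 10 passed the age test by edgeR. Apobec3, an antiviral deaminase gene that lies between Cbx6 and Cbx7 and was not counted among the 10, had 0.64 ± 0.35 (SE). The old and young values of the 10 overlapped in each case. Mgat3, a glycosyltransferase gene, had -0.17 ± 0.08 (SE), the 1 of 10 with an unadjusted p under 0.05 (adjusted p = 0.436 by edgeR), near the background of 1563 of 14191 tested genes.

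Sex was not used to pick the genes and was tested in the same fit, with 2 females and 2 males at each age. With edgeR, 0 of the 9 were past the adjusted threshold for sex, where 0.0423% of all tested genes did, and 1 of 9 had an unadjusted p under 0.05, beside 4.76% of all genes. DESeq2 and limma-voom also called 0 of 9, beside 0.0634% of all tested genes with DESeq2 and 0.0282% with limma-voom. The 1 gene was Cbx8, with 14.1 ± 4.79 CPM in females and 18.6 ± 6.30 CPM in males (SD, n = 4 each), a log2 fold change of -0.41 ± 0.15 (SE), female minus male, and an adjusted p of 0.930 by edgeR. Bmi1 had 81.5 ± 8.97 CPM in females and 70.5 ± 5.79 CPM in males (SD, n = 4 each), a log2 fold change of 0.21 ± 0.10 (SE) with an adjusted p of 0.930 by edgeR. For the other 7 genes the log2 fold changes between the sexes ran from -0.33 ± 0.22 (SE, Cbx2) to 0.12 ± 0.10 (SE, Suz12).

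The difference between the ages was compared between females and males by the interaction of age and sex. None of the 9 genes passed by edgeR's quasi-likelihood test and 0 had an unadjusted p under 0.05, while 0.00% and 2.30% of all tested genes did. With 2 animals in each cell the estimates were wide. For Cbx8 the mean log2 level differed between old and young by -0.83 in females and -0.79 in males, and the interaction was -0.07 ± 0.33 (SE). For Cbx2 the values were -0.75 in females and -0.22 in males, with an interaction of -0.54 ± 0.44 (SE). Cbx6 had -0.30 in females and -0.25 in males.

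Among the other genes of the pathway, 81 Polycomb, Trithorax and related genes outside the 9 were tested, and none passed the age test by edgeR. Of them 9 had an unadjusted p under 0.05, near the background of 1563 of 14191 tested genes. DESeq2 called 1 (Smarcc2), beside 0.881% of all genes, and limma-voom called 0. Their signs were split, with 41 positive and 40 negative log2 fold changes and a median of 0.00, and old values lay entirely above young ones for 1 gene and below for 3, beside 3.15% and 3.42% of all genes, so these counts did not stand out from the background. Of 10 canonical PRC1 partners 6 were positive, with a median of 0.02. Phc3, a polyhomeotic subunit that polymerizes, had 0.12 ± 0.08 (SE), and Rnf2, the ubiquitin ligase of the complex, had 0.07 ± 0.09 (SE).

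Of 22 variant PRC1 subunits 14 were positive, with a median of 0.03. Pcgf5, a ring finger protein of a variant complex, had 82.1 ± 4.80 CPM in old and 65.9 ± 8.60 CPM in young mice (SD, n = 4 each), the 1 gene of the 81 with all old values above the young ones. Its log2 fold change of 0.32 ± 0.10 (SE) did not pass (adjusted p = 0.255 by edgeR). Auts2, a subunit of variant complexes known from neurodevelopment, had -0.20 ± 0.08 (SE). Of 10 PRC2 accessory subunits 4 were positive, with a median of -0.01. Rbbp7, a histone-binding subunit, had -0.22 ± 0.09 (SE) with no overlap, and Jarid2, which helps recruit PRC2, had -0.18 ± 0.10 (SE).

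Of 11 genes of the Polycomb deubiquitinase 6 were positive, with a median of 0.01. Its catalytic subunit Bap1 had 140 ± 8.41 CPM in old and 163 ± 9.14 CPM in young mice (SD, n = 4 each), a log2 fold change of -0.22 ± 0.07 (SE) without overlap (adjusted p = 0.280 by edgeR), and Asxl2, a regulatory subunit, had 0.23 ± 0.09 (SE). The demethylases that remove the PRC2 mark, Kdm6b and Kdm6a, had -0.25 ± 0.11 and 0.13 ± 0.11 (SE) for age. Kdm6a, an X-linked gene known to escape X inactivation, was higher in females, at 89.4 ± 10.1 CPM in females and 52.2 ± 7.46 CPM in males (SD, n = 4 each). Its log2 fold change was 0.79 ± 0.11 (SE), female minus male, with an adjusted p of 0.0386 by edgeR, and it was higher in each of 4 females than in any male. The call depended on the fit. Limma-voom, a replicate block and leaving out old 1 each gave 0 genes called higher in females, so Kdm6a was not called there.

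Of 3 heterochromatin Cbx genes, whose proteins read a different histone mark, the median was 0.01, and Cbx1 had -0.21 ± 0.10 and Cbx5 0.07 ± 0.09 (SE). Of 23 Trithorax and SWI/SNF genes, which oppose Polycomb, 15 were negative, with a median of -0.03. Smarcc2, a SWI/SNF core subunit, had 348 ± 19.0 CPM in old and 418 ± 18.2 CPM in young mice (SD, n = 4 each), a log2 fold change of -0.26 ± 0.07 (SE) without overlap (adjusted p = 0.213 by edgeR), and Men1 had -0.25 ± 0.10 (SE). Among 26 tested of 61 listed textbook Polycomb targets (Hox genes and developmental regulators), the signs were split 13 to 13 around a median of 0.00. By edgeR 0 of them were called, beside 0.120% of all tested genes, and 0 had an unadjusted p under 0.05, beside 1563 of the 14191. The smallest p-values were those of Gata2 at 0.53 ± 0.25 and Pax2 at -0.40 ± 0.20 (SE).

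**Figure D3:**
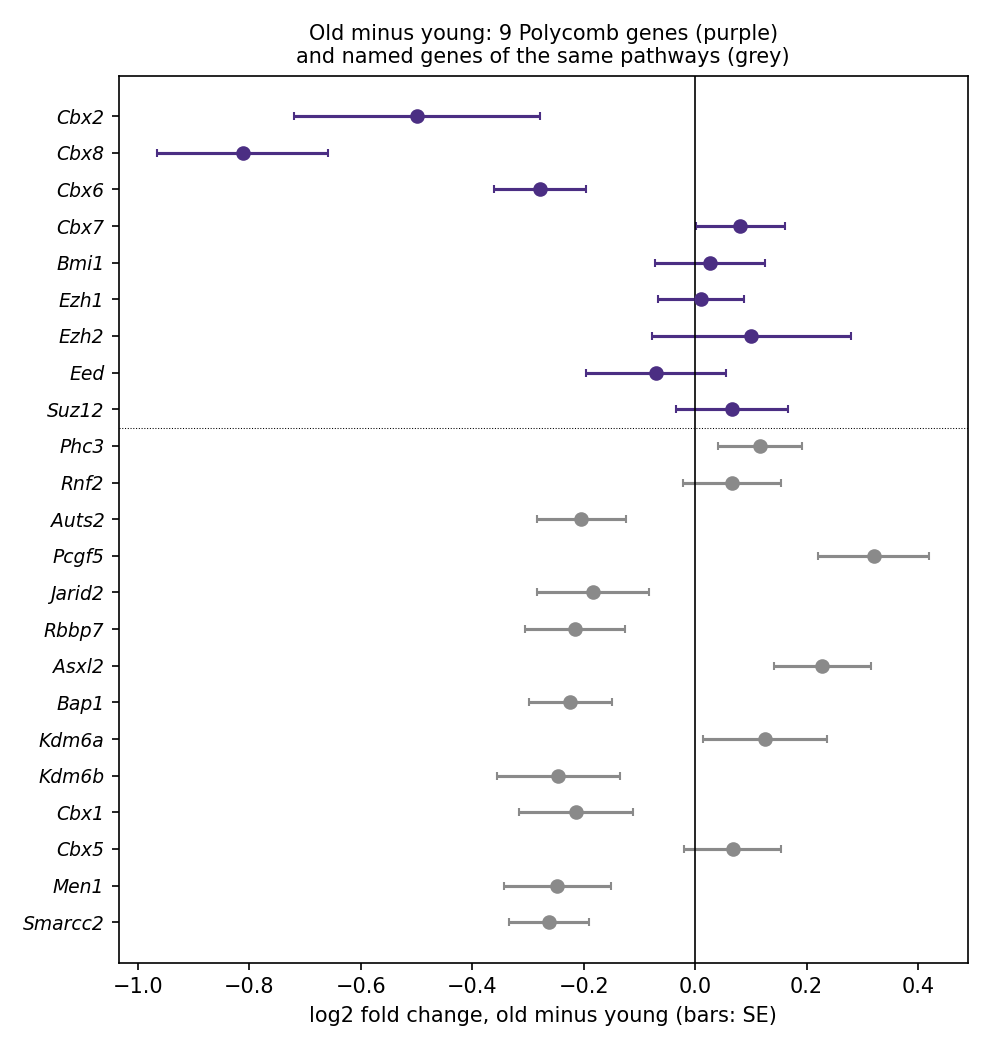
Log2 fold change, old minus young (horizontal axis, points with SE bars), of the 9 Polycomb genes in purple and of the named genes of related complexes in grey. Of the genes drawn, Cbx8 (-0.81) and Cbx2 (-0.50) lie farthest left, and Bmi1, Ezh1, Ezh2, Eed and Suz12 lie between -0.07 and 0.10. The grey genes are a part of their lists. All 81 other genes tested ran from -0.49 to 0.32, and the 26 textbook targets tested, which are not drawn, from -0.89 to 0.64.

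The 9 genes differed in how they varied from library to library. After the age means were taken out, Pearson r of log2 CPM over 8 libraries was above 0 in 29 of 36 pairs, with a median of 0.36. The highest values were those of Bmi1 with Suz12 (0.87), Ezh2 with Eed (0.85) and Cbx7 with Eed (0.70). The lowest were those of Cbx8 with Bmi1 (-0.45) and with Suz12 (-0.30). The values share the depth, scaling and cell makeup of their library and are given as a description. Sex means were not taken out, so r also carries differences between the sexes. These were -0.41 for Cbx8, 0.21 for Bmi1 and 0.12 for Suz12 (log2 fold change, female minus male). The part of sex in r was not tested. Granule neuron scores, the median deviation of the markers' log2 CPM from their mean, ran from -0.38 to 0.12 in old and -0.23 to 0.38 in young libraries.

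The gene most like each of the 9 over the 8 libraries, among 11048 to 11049 genes whose log2 CPM averaged 3 or more, was found by Pearson r of log2 CPM. It was Adprh for Cbx8 (r = 0.98), Carmil2 for Cbx2 (0.99), Lrp12 for Cbx6 (0.99) and Stk10 for Cbx7 (0.97). It was Tardbp for Bmi1 (0.99), Iars for Ezh1 (0.96), Pan2 for Ezh2 (0.96), Ift46 for Eed (0.98) and Fmr1 for Suz12 (0.98). Other genes came close, since 172 genes had an r over 0.9 with Cbx6 and 11 with Ezh1. Each named gene is the highest of 11048 or 11049 values over only 8 libraries, so its r is high by selection. The age means were not taken out here, so r also carries the old and young differences known when the 9 were picked. Nothing further is read from these values.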

How the data were processed

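RNA of frozen cerebellum was extracted with Trizol and columns with DNase digestion and made into ribosomal RNA-depleted libraries of total RNA (Zymo-Seq), per the labels' protocols. The authors deposited 1 table of raw counts per gene for each of 8 libraries, per the file headers. The submitters' processing notes name STAR 2.7.5b, featureCounts, Trimmomatic 0.39 and GRCm38. The annotation, strand and multimapping settings were not given in the sources used here. The series text names liver and other ages, and the sample labels were followed. For 24 genes the name was a date in 7 tables, so tables were joined by row order.

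Genes were kept by filterByExpr (minimum count 10) over the age-by-sex cells and tested with edgeR 4.0.16 (R 4.3.3) quasi-likelihood on age and sex with TMM scaling, robust dispersions and Benjamini-Hochberg adjustment over all genes at 0.05. Standard errors were obtained by dividing each log2 fold change's size by the root of its F statistic. Log2 CPM used a prior count of 2. Alternatives were DESeq2 1.42.0, its size factors, limma-voom (limma 3.58.1), other filters and covariates, a replicate block and libraries left out. Exon lengths and coordinates are from GENCODE M21 (GRCm38). On simulated counts for the age comparison (14054 genes), 50.0% of 1.5-fold, 78.6% of 2-fold and 98.5% of 4-fold changes were recovered. Libraries with the same number did not pair (r from -0.25 to 0.16 over 4 pairs). Named genes were the 9, the 2 genes of smallest age p in each list, genes past the threshold and the most similar gene. A gene that this rule also names is not reported here. Genes and lists were chosen with earlier results of these data known. Every pair of libraries differed by more than counting noise.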

Additional observations from a re-analysis of the deposited data

How the results depend on the processing

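The number of genes past the age test over all genes was 17, and it was 125 with the DESeq2 Wald test, 1 with limma-voom, 1 with the replicate block, 116 after adding the granule neuron score, and 184 on leaving out old 2, old 3 and young 4. Leaving out 1 library gave 0 to 63, namely 0 without young 3 or young 4, 2 without old 1 or young 1, 8 without young 2, 13 without old 4, 49 without old 3 and 63 without old 2. Among the 81 other Polycomb genes, 1 was called with the DESeq2 Wald test (Smarcc2) and 1 with the granule neuron score (Asxl3), against 0 in the fit reported and 0 with any single library left out. Of the 9 genes, Cbx8 was the 1 called, on the values that picked it and so without weight as evidence, with DESeq2, with the granule neuron score and without old 2, old 3 and young 4. With single libraries left out the count was 0 to 1, the 1 being Cbx8 without old 3. Calls for sex over all genes were 6, and 40 without old 2, old 3 and young 4, with 4 to 46 when 1 library was left out, the highest without old 3. The cause was not tested.

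Over 17 alternatives the log2 fold change was -0.95 to -0.71 for Cbx8, -0.34 to -0.22 for Cbx6 and 0.03 to 0.14 for Cbx7, and over 16 it was -0.66 to -0.32 for Cbx2, where the granule neuron score gave -0.32. For Ezh2 it was -0.03 to 0.32, and the sign of Bmi1, Ezh1, Ezh2, Eed and Suz12 varied. The replicate block called none of the 9 genes. The filter of 50 counts removed Cbx2. No sample of the 9 genes stood apart within its age group by Dixon's ratio (0 of 18 groups). Cbx2 had the fewest reads of the 9.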
